A study of Mus musculus with 10 samples.

Results

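Imprinted genes were followed in RNA-seq of germinal center B cells from mice with and without ZBTB38, a zinc finger protein that binds methylated DNA and is reported to bind imprinting control regions. A list of 38 imprinted protein-coding genes of the mouse was matched by symbol, and 37 of them were among the 22380 genes of the files. Rtl1 was not analysed here. For each gene the estimated counts and the TPM of its transcripts were summed.

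The cells were NP-binding germinal center B cells, sorted by surface staining as GL7+IgD- B cells 2 weeks after immunization with NP-OVA, and each library came from one mouse. The floxed allele was made in C57Bl6/J zygotes, and the mice were maintained by backcrossing to C57Bl6/N. The number of backcross generations was not given. There were 2 ZBTB38 WT mice (Zbtb38fl/fl without Cre), 2 ZBTB38 HET mice (Zbtb38fl/+ with Vav-Cre) and 6 ZBTB38 KO mice (Zbtb38fl/fl with Vav-Cre). All 3 genotypes carried at least one floxed allele, and all floxed alleles descended from a single founder. Vav-Cre acts mainly in hematopoietic cells, so it was already active before the B cell stage, and the ZBTB38 WT mice lacked it. Ages were not given in the sources used here.

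Imprinted genes are transcribed mainly or only from the copy inherited from one parent. The choice is set by DNA methylation laid down in the egg or the sperm at imprinting control regions and kept in the cells of the body, and it often holds for several neighbouring genes and only in some tissues. Many imprinted genes act in fetal growth, in the placenta or in the brain, and a network of them is active before birth and silenced later. The files give one total per transcript and do not separate the 2 parental copies, so all values below are totals over both.

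Each library held between 26612431 and 41059082 estimated counts. ZBTB38 KO replicate 6 stood apart from the others, with a median correlation of 0.913 to the other libraries against 0.94 to 0.959 for the rest, and counts of calls and the values of Ube3a, Igf2r, Inpp5f, Snrpn and Zfp445 are also given without it. Zbtb38 itself was at 162 and 152 CPM (counts scaled to library size after TMM normalization) in ZBTB38 WT, at 117 and 106 CPM in ZBTB38 HET, and between 18.6 and 50.3 CPM with a median of 30.3 CPM in ZBTB38 KO. Every ZBTB38 KO library lay below every control library, with a difference in mean log2(CPM + 1) of -2.335 from ZBTB38 WT and of -2.09 from ZBTB38 WT and HET together. In exact permutation tests (two-sided) these gave p = 0.0357 and p = 0.00476, each the lowest value possible with 2 or 4 libraries against 6. The Zbtb38 levels are sums over all its transcripts and were not split by exon. The paper reports complete loss of transcripts within the floxed exon, which holds the whole coding sequence, in ZBTB38 KO. All 9 markers of germinal center B cells were detected, and their summed level was between 7399 and 10985 CPM. Messages of other cells were present at lower sums that differed between libraries. They ranged from 200.2 to 352 CPM for 15 T cell markers, from 82.4 to 804 CPM for 10 myeloid markers and from 35.5 to 96.5 CPM for 6 erythroid markers. For 10 stromal and endothelial markers the sum was 291 to 542 CPM, nearly all of it from Cr2 and Pecam1, which B cells or other blood cells also express.

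Since ZBTB38 binds methylated CG pairs, the sequences just upstream of 3 starts are shown with every CG pair in capitals. Ube3a and Igf2r are the members whose counts were lower in ZBTB38 KO at an unadjusted p under 0.05, and Peg3 and Usp29 are a pair with annotated starts next to each other on opposite strands. The sequences are those of RefSeq for GRCm38.p6, and each is written 5′ to 3′ on the strand given.
Ube3a, chr7:59228500-59228749, plus strand, the 250 bases before the start: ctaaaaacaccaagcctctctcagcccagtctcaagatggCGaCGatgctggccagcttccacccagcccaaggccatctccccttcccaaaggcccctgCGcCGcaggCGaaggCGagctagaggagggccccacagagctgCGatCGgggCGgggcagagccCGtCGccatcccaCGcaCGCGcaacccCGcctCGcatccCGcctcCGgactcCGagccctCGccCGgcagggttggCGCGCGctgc
Igf2r, chr17:12769707-12769956, minus strand, the 250 bases before the start: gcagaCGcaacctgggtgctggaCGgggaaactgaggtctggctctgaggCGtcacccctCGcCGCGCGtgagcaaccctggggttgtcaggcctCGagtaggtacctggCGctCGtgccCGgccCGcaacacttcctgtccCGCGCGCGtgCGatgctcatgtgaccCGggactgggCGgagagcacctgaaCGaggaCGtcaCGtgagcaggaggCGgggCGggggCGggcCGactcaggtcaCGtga
Peg3 and Usp29, chr7:6730420-6730582, plus strand, the 163 bases between their starts: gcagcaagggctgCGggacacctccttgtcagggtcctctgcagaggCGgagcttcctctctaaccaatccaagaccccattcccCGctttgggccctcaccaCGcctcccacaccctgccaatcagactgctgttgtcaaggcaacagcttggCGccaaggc
The stretch before Ube3a held 24 CG pairs, that before Igf2r held 27, and that between Peg3 and Usp29 held 5. In windows of 300 bases around a start (250 before and 50 after, one strand, since CG reads the same on both), Igf2r had 34 CG pairs, and 7.7% of all 32851 windows had at least as many. Ube3a had 29 CG pairs, a number reached by 12.9% of windows. The 46 windows used for 30 members, with any window of the member Impact left out, had a median of 16.5 CG pairs, against 7 over all windows. The largest numbers among these member windows were 45 at one Grb10 start and 40 at the start of the main Gnas transcripts. The smallest was 2, found at Tspan32, at Slc22a18, at one of 4 Snrpn starts and at one of 4 Igf2 starts. These counts describe the sequence only, and methylation was not measured.

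Most imprinted genes were silent or nearly so in germinal center B cells. Of the 37, 9 had a mean of at least 5 TPM (a level corrected for transcript length and library depth) over the 10 libraries, 5 lay between 1 and 5 TPM, and 23 lay below 1 TPM. That is 24.3% of members at 5 TPM or more against 39.5% of all genes, and 37.8% of members at 1 TPM or more against 49.3% of all genes. The median member was at 0.15 TPM and the median gene at 0.902 TPM. A count of 0 in all 10 libraries was less frequent among members (16.2%) than among all genes (21.9%). Members are grouped here as maternal, paternal or isoform-dependent by the copy known to be active in some tissues. Which copy was used in these cells was not measured. At 5 TPM or more were 7 of 17 maternal members, both isoform-dependent ones (Gnas and Inpp5f) and 0 of 18 paternal members. At 1 TPM or more the counts were 8 of 17, 2 of 2 and 4 of 18.

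**Figure D1:**
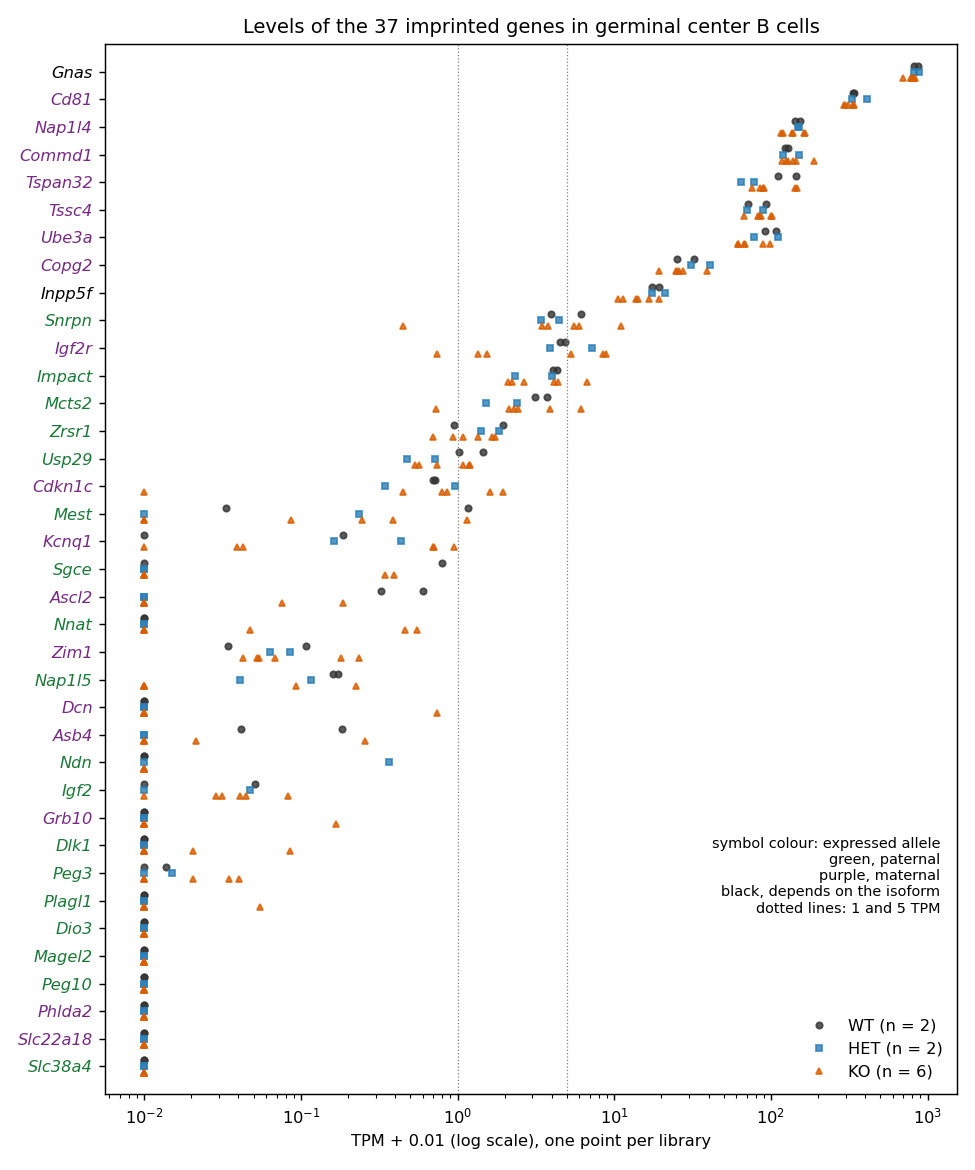
Level of each of the 37 imprinted genes on the horizontal log axis (TPM + 0.01), with one point per library for ZBTB38 WT (n = 2), HET (n = 2) and KO (n = 6), in order of the mean and with the symbol coloured by the parental copy known to be expressed. Gnas leads with a mean of 809 TPM, and 6 genes sit at 0 in all 10 libraries. All 9 genes with a mean of at least 5 TPM are listed as maternal or isoform-dependent. The copy used in these cells was not measured.

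Gnas, which encodes the stimulatory G protein subunit that couples receptors to adenylyl cyclase, was the highest member with a mean of 809 TPM (range 696 to 878 TPM, n = 10), above 99.2% of genes. Cd81, a tetraspanin of the B cell surface, followed at 332 ± 32.2 TPM (SD, n = 10). Nap1l4, a histone chaperone, was at 144 ± 16.7 TPM (SD, n = 10), and Commd1, which acts in copper handling and in ubiquitination of NF-kappaB, at 136 ± 21.3 TPM (SD, n = 10). The libraries of these 2 genes ranged from 115 to 166 TPM and from 117 to 188 TPM, so their order is not set beyond the spread. Tspan32, a tetraspanin of blood cells, had 103 ± 31.5 TPM (SD, n = 10), Tssc4, a factor of U5 snRNP assembly, 84.8 ± 12.2 TPM (SD, n = 10) and Ube3a, a ubiquitin ligase, 83.6 ± 18.8 TPM (SD, n = 10), and these 3 overlapped as well. Copg2, a COPI coat subunit, was at 29.1 ± 6.72 TPM (SD, n = 10) and Inpp5f, a phosphoinositide phosphatase, at 16.1 ± 3.53 TPM (SD, n = 10).

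Below these came Snrpn, a splicing protein, at 4.81 ± 2.72 TPM (SD, n = 10), Igf2r, the receptor that clears IGF2 and carries mannose 6-phosphate tagged enzymes, at 4.66 ± 2.91 TPM (SD, n = 10), and Impact, an inhibitor of the kinase GCN2, at 3.69 ± 1.42 TPM (SD, n = 10). The libraries of all 3 overlapped. Mcts2, an X-linked gene's retrocopy on chromosome 2, had a mean of 2.83 TPM (range 0.723 to 6.14 TPM, n = 10), while its parent Mcts1 had 150 ± 18.1 TPM (SD, n = 10). Zrsr1, a retrocopy of the splicing gene Zrsr2 inside an intron of Commd1, had 1.35 ± 0.43 TPM (SD, n = 10), while Zrsr2 had 25.5 ± 6.65 TPM (SD, n = 10). Both retrocopies were therefore far below their parents, and Mcts2 shared 0 of its 31-base words with other genes. Nap1l5, a further intronless member of the family of Nap1l4, had at most 0.213 TPM in any library.

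Of the 9 growth and signalling members, Gnas and Inpp5f were at 5 TPM or more, Igf2r lay between 1 and 5 TPM, and 6 lay below 1 TPM. Igf2, the fetal growth factor, had at most 0.0733 TPM in any library, and 64.6% of its 31-base words also occur in the overlapping Gm49394, so its few counts are uncertain. Dlk1, a Notch ligand relative, had at most 3 counts in a library, Plagl1, a zinc finger regulator of the growth network, 1 count in 1 library, and Peg3, another zinc finger protein, at most 6 counts. Cdkn1c, an inhibitor of cyclin-dependent kinases, was at 0.832 ± 0.577 TPM (SD, n = 10) and had counts in 9 libraries, all except ZBTB38 KO replicate 6. Magel2, Dio3, Slc22a18, Phlda2, Peg10 and Slc38a4 had a count of 0 in all 10 libraries, where 0 allows up to 3 counts, or from 0.0731 to 0.113 CPM by library (counting error only). They are a MAGE protein, a thyroid hormone deiodinase, a transporter, a placental growth regulator, a retrotransposon-derived placental gene and an amino acid transporter.

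Several members had counts in one library alone. Ndn, a MAGE protein, had 25 counts in ZBTB38 HET replicate 2 and 0 in the other 9 libraries. Dcn, a matrix proteoglycan, had 29 counts in ZBTB38 KO replicate 1, and Grb10, an adaptor that restrains insulin signalling, had 16 counts in ZBTB38 KO replicate 4, with 0 elsewhere. These are 3 of the 25 members with at least 10 counts in some library (12%), and of all 15460 genes that reached 10 counts in some library, 220 (1.42%) had counts in 1 library only. Dcn marks fibroblasts. Of the other matrix genes, Col1a2 was at 0.474 CPM in the Dcn library and at 0 in the others, Col3a1 was at 0 in every library, and Lum had 1 count in each of 2 other libraries. Col1a1 was at 0.03 to 0.269 CPM over the 10 libraries and at 0.146 CPM in the Dcn library. Of the other stromal markers, Cxcl12 was at 1.17 CPM in the Dcn library and at most 0.472 CPM elsewhere. Pdgfra was at 0.401 CPM there and between 0.0326 and 0.829 CPM over the 10 libraries. Pdgfrb was at 0.0365 CPM there and at most 0.252 CPM elsewhere. The part of such cells in the Dcn counts was not tested.

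The other members below 1 TPM had low counts in several libraries. Usp29, a ubiquitin protease gene, was at 0.888 ± 0.335 TPM (SD, n = 10) with 33 to 109 counts per library. Peg3 starts on the other strand, and the RefSeq windows of the 2 genes share 263 bases, the middle of which is printed above. Most of the Usp29 TPM (75.4% of its sum over libraries) came from a transcript with an annotated start at 6947602, away from that stretch. Mest, a hydrolase relative, had 0 to 31 counts and shares 25.9% of its 31-base words with Copg2, whose end overlaps it on the other strand. Kcnq1, a potassium channel, had 0 to 26 counts, Zim1, a zinc finger protein, 5 to 36, Sgce, a sarcoglycan, 0 to 18, Asb4, a ubiquitin ligase adaptor, 0 to 16, and Nap1l5 0 to 8. Sgce and Asb4 were at 0 in both ZBTB38 HET libraries. Nnat, a small membrane protein of neurons, had 5, 7 and 1 counts in ZBTB38 KO replicates 2, 4 and 6 and 0 in the other 7 libraries, WT and HET included.

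Ascl2, a transcription factor of trophoblast that is also known from T follicular helper cells, had 16 and 9 counts in the ZBTB38 WT libraries, 0 in both ZBTB38 HET libraries, and 6 and 2 counts in ZBTB38 KO replicates 3 and 4 with 0 in the other 4. The sum of the 15 T cell markers was 343 and 352 CPM in ZBTB38 WT, 200.2 and 209 CPM in ZBTB38 HET, and between 204 and 302 CPM in ZBTB38 KO. Lck alone, which was at 160.4 and 168 CPM in WT, 171 and 165 CPM in HET and 126 to 220.1 CPM in KO, made up much of that sum. Without Lck the other 14 markers summed to 182 and 185 CPM in WT, 29.1 and 44.7 CPM in HET and 51.2 to 152 CPM in KO. Cd3e, a T cell receptor subunit, was at 17.96 and 13.7 CPM in WT, 1.59 and 4.198 CPM in HET and 3.71 to 7.40 CPM in KO. The part of T cells in the Ascl2 counts was not tested.

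The domain around Kcnq1 on chromosome 7 showed active and silent members side by side. In Gencode vM21, which shares the GRCm38 build with the vM17 annotation used for quantification, its 9 listed genes run from Ascl2 at 142966829 to Nap1l4, which ends at 143549106. Tspan32, Cd81 and Tssc4 lie upstream of the Kcnq1 start and had means of 103, 332 and 84.8 TPM. Kcnq1, Cdkn1c, Slc22a18 and Phlda2 follow with means of 0.314, 0.832, 0 and 0 TPM, and Nap1l4 next to them was at 144 TPM. The 4 high genes lay on both flanks, with all 10 libraries of each above 64.6 TPM. Ascl2, at the outer edge, was at 0.115 TPM.

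**Figure D2:**
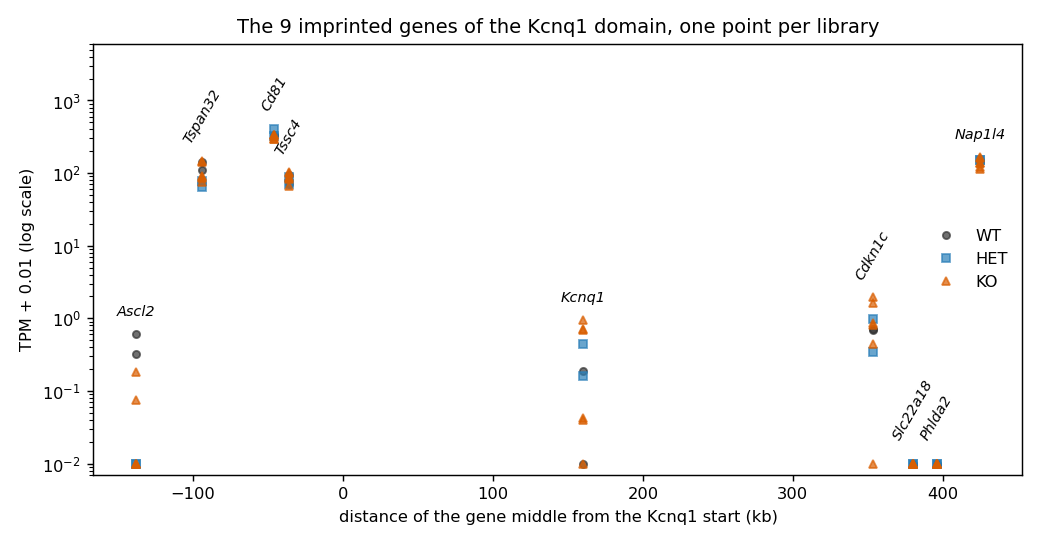
TPM + 0.01 (log axis) of the 9 imprinted genes of the Kcnq1 domain against the distance of each gene's middle from the Kcnq1 start in kb, with one point per library of ZBTB38 WT, HET and KO. Tspan32, Cd81, Tssc4 and Nap1l4 lie above 64.6 TPM in every library, and the genes between them lie below 2 TPM. At Ascl2, which had at most 16 counts in a library, both WT points lie above the rest. At Tspan32 both HET points lie below both WT points, and at the other genes the 3 genotypes are mixed.

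Other neighbours were also unequal. In central chromosome 7, Ube3a was at 83.6 TPM and Snrpn at 4.81 TPM, while Ndn and Magel2 were at 0.0357 and 0 TPM. Copg2 was at 29.1 TPM and the overlapping Mest at 0.323 TPM.

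For Gnas and Inpp5f the start used matters, since different starts are imprinted differently. Gnas transcripts that start at 174330006 to 174330287 on chromosome 2, which encode the main G protein subunit, made up between 99.4% and 99.7% of the Gnas TPM in each library. Transcripts from the Nesp region, starting at 174284320 to 174285358 and known to be maternal, summed to 0.719 to 2.55 TPM. Those from 174297859, known to be paternal and to encode the extra-large form, summed to 0.184 to 0.512 TPM. A transcript that starts at 174327768 was at 1.28 to 2.21 TPM. The first Gnas group was at 837 ± 31.4 TPM (SD, n = 2) in ZBTB38 WT, 846 ± 40.3 TPM (SD, n = 2) in HET and 781 ± 46.6 TPM (SD, n = 6) in KO, with overlapping libraries. The main start was therefore used almost alone in all 3 genotypes. Of the exon bases of Gnas, 8.8% overlap Nespas on the other strand, and 12.7% of its 31-base words occur in Gm20721.

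Inpp5f had 2 sources of transcripts. The full-length transcript from 128611360 on chromosome 7 was at 12.6 and 14.3 TPM in ZBTB38 WT, 10.98 and 17.4 TPM in HET and between 4.67 and 13.8 TPM in KO. The 3 transcripts from internal starts at 128687546 to 128688489, a region whose transcripts are known to be paternal in the brain, gave 3.04 and 6.83 TPM in ZBTB38 WT, 3.77 and 6.36 TPM in HET and from 0.408 to 8.96 TPM in KO. Their share of Inpp5f TPM ranged from 2.88% to 56.0% between libraries, and the groups overlapped for both sources.

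No imprinted gene passed the test between genotypes. With edgeR's quasi-likelihood test and an adjusted p under 0.1, 0 of 20 tested members were called between ZBTB38 WT and KO, where 0.00704% of all 14203 tested genes were called. Between ZBTB38 WT and HET together and KO, 0 of 18 were called against 0.00749% of 13347 genes. Between HET and KO and between WT and HET, 0 of 20 were called, against 0.00697% of 14354 genes in each. The gene called between ZBTB38 WT and KO, and between both controls and KO, was Zbtb38 itself (edgeR adjusted p = 0.0734 and 0.0104). Its edgeR adjusted p was 0.128 between HET and KO and 0.873 between WT and HET, so it was not called there. The lowest adjusted p of a member was 0.999, 0.744, 0.434 and 0.709 in the 4 comparisons. The remaining 17 of 37 members had counts too low for the filter in the first comparison, so no statement is made on their change. At an unadjusted p under 0.05, members numbered 1, 2, 2 and 1 in the 4 comparisons, where 2.19%, 6.30%, 10.2% and 6.42% of all tested genes stood. On 18 or 20 members these counts are close to what the shares over all genes give. DESeq2 called 0 members in each of the 4 comparisons, where it called 5, 18, 458 and 125 genes in all (0.0352%, 0.135%, 3.19% and 0.871%), and edgeR without ZBTB38 KO replicate 6 also called 0 in each.

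Members lay on both sides of no change. Between ZBTB38 WT and KO, 11 of 20 tested members were higher in KO and 9 lower, with a median log2 fold change of 0.04 (KO over WT), beside 0.01 over all tested genes. This median turned to -0.17 on log2(TPM + 1) with limma. With ZBTB38 WT and HET together as controls, 12 were higher and 6 lower with a median of 0.08 beside 0.02 over all genes, and it turned to -0.07 on log2(TPM + 1). For KO over HET, 13 were higher and 7 lower with a median of 0.28 beside 0.07, and for HET over WT the same split had a median of 0.07 beside -0.01. These turned to -0.025 on log2(TPM + 0.1) and to -0.016 on log2(TPM + 1). These comparisons share libraries, so their splits are not separate evidence.

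The intervals were narrower than a doubling or halving for the well expressed members. The 95% interval of the log2 fold change lay within -1 to 1 for 9 of 20 members between ZBTB38 WT and KO, which were the 9 with at least 5 TPM, and for 12 of 18 with ZBTB38 WT and HET together. For Nap1l4 it ran from -0.17 to 0.18 and for Gnas from -0.19 to 0.25 in the latter comparison. For Snrpn it ran from -0.99 to 1.52 and for Cdkn1c from -1.46 to 2.46, and both include a doubling.

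**Figure D3:**
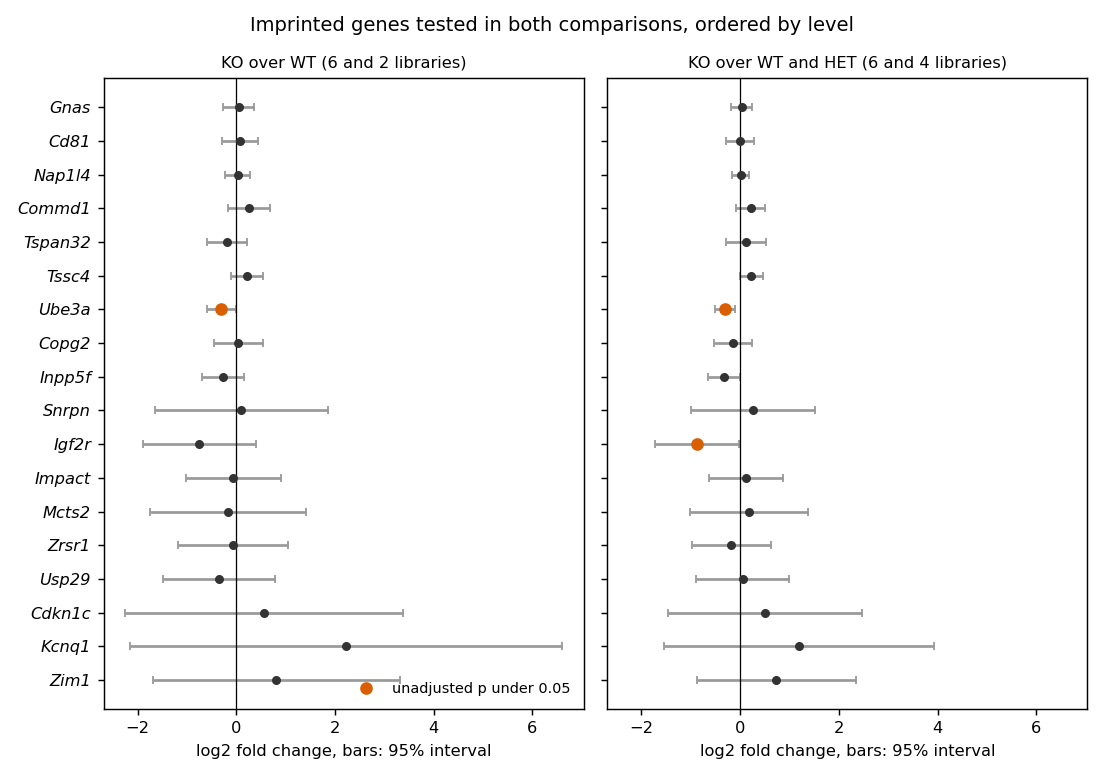
Log2 fold change (points) with its 95% interval (bars) of the 18 imprinted genes tested in both comparisons, for ZBTB38 KO over WT on the left and over WT and HET together on the right, ordered from the highest level at the top. Orange points had an unadjusted p under 0.05, namely Ube3a in both and Igf2r on the right; the intervals widen towards the low genes at the bottom.

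Among the growth and signalling genes, Gnas was at 960.2 and 884 CPM in ZBTB38 WT, 924 and 969 CPM in HET, and between 832 and 1132 CPM with a median of 950.1 CPM in KO. The KO libraries spanned those of both other genotypes. The log2 fold change was 0.05 (SE 0.143) for KO over WT and 0.03 (SE 0.102) for KO over both controls. Inpp5f was at 53.6 and 51.7 CPM in ZBTB38 WT, 48.7 and 64.1 CPM in HET, and from 30.5 to 49.5 CPM with a median of 46.3 CPM in KO. All 6 KO libraries lay below both WT libraries, and one of them above one HET library. The log2 fold change was -0.27 (SE 0.195) for KO over WT and -0.32 (SE 0.149, edgeR adjusted p = 0.744) for KO over both controls, and -0.24 (SE 0.118, edgeR adjusted p = 0.818) without ZBTB38 KO replicate 6, which was the lowest.

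Igf2r lay below all controls in 4 of 6 ZBTB38 KO libraries, with a wide spread. It was at 28.5 and 29.9 CPM in ZBTB38 WT and 25.1 and 43.7 CPM in HET, and at 11.05, 19.3, 10.8, 29.9, 27.8 and 5.44 CPM in KO replicates 1 to 6. Replicates 4 and 5 lay among the controls and the other 4 below them, and the groups overlapped. The mean was 29.2 ± 1.05 CPM (SD, n = 2) in WT, 34.4 ± 13.2 CPM (SD, n = 2) in HET and 17.4 ± 9.94 CPM (SD, n = 6) in KO. The log2 fold change was -0.75 (SE 0.516) for KO over WT and -0.87 (SE 0.395, edgeR adjusted p = 0.744) for KO over both controls, and without ZBTB38 KO replicate 6 the latter was -0.68 (edgeR adjusted p = 0.818). Over all 20 alternatives this adjusted p ranged from 0.538 to 0.992.

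The transcripts of Igf2r did not move alike. The full-length transcript of 8887 bases was at 4.50 and 4.82 TPM in ZBTB38 WT, 3.88 and 6.88 TPM in HET, and 1.34, 3.08, 1.52, 4.92, 4.07 and 0.729 TPM in KO replicates 1 to 6. A fragment of 261 bases was at 0 in all 4 controls and in KO replicates 1, 3 and 6, and at 4.91, 1.83 and 1.18 TPM in KO replicates 2, 4 and 5. A short transcript takes a high TPM from few reads, and the gene's summed TPM and its counts ranked the libraries differently. With counts scaled by transcript length the log2 fold change for KO over both controls was -0.21 (edgeR adjusted p = 0.95), less than 0.5 of the value from the counts as deposited.

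Ube3a was the member that differed most evenly. It was at 140.5 and 149.7 CPM in ZBTB38 WT and 140.5 and 153 CPM in HET, and at 124, 129, 108, 124, 117 and 105 CPM in KO replicates 1 to 6. All 6 KO libraries lay below all 4 control libraries, and the WT and HET libraries overlapped. Groups that did not overlap in CPM were found for 1 of 18 members between controls and KO, and for 1.51% of all tested genes. Between ZBTB38 WT and KO they were found for 2 of 20 members, Ube3a and Inpp5f, and for 6.58% of all tested genes. The mean was 145 ± 6.55 CPM (SD, n = 2) in WT, 147 ± 8.85 CPM (SD, n = 2) in HET and 118 ± 9.61 CPM (SD, n = 6) in KO. The log2 fold change was -0.30 (SE 0.13, edgeR adjusted p = 0.999) for KO over WT and -0.31 (SE 0.0931, edgeR adjusted p = 0.744) for KO over both controls, with a 95% interval from -0.51 to -0.11. It was -0.32 (SE 0.121, edgeR adjusted p = 0.434) for KO over HET and 0.02 (SE 0.151) for HET over WT.

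The lower Ube3a level in ZBTB38 KO thus missed the threshold over all genes in every comparison. Without ZBTB38 KO replicate 6, the log2 fold change over both controls was -0.28 (edgeR adjusted p = 0.818), and over all 20 alternatives the adjusted p ranged from 0.226 to 0.992. In TPM the groups overlapped, with 91.4 and 108 TPM in ZBTB38 WT, 78.3 and 111 TPM in HET and from 61.3 to 99.3 TPM in KO. Of the 11 Ube3a transcripts, a short one of 579 bases carried 39.6% of the summed TPM, and it and the transcript of 3889 bases that begins at the annotated start printed above were both lower on average in KO, at 29.1 ± 5.97 against 41.1 ± 7.56 TPM in WT and at 16.2 ± 4.65 against 24.6 ± 0.484 TPM in WT (SD, n = 6 and 2). The short transcript was at 27.8 and 46.5 TPM in HET and from 24.6 to 39.3 TPM in KO. The transcript of 3889 bases was at 17.6 and 26.2 TPM in HET and from 10.5 to 21.6 TPM in KO. For both transcripts the KO libraries overlapped the controls. Ube3a is silenced on the paternal copy in neurons, by an antisense RNA, and is read from both copies in most other cells. That antisense RNA, Snhg14, overlaps 8.7% of the Ube3a exon bases in the annotation and was not quantified in these files.

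Among the other genes of ubiquitin and protein control, Commd1 was at 57.6 and 56.9 CPM in ZBTB38 WT, 66.6 and 55.4 CPM in HET and between 56.9 and 83.4 CPM with a median of 65.3 CPM in KO. The groups overlapped, and the log2 fold change for KO over both controls was 0.21 (SE 0.138). Usp29 lay between 1.19 and 3.73 CPM over all libraries, with a log2 fold change of 0.05 (SE 0.438).

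The membrane proteins of the Kcnq1 domain gave one difference of another kind. Tspan32 was at 85.1 and 94.9 CPM in ZBTB38 WT, 52.4 and 60.3 CPM in HET, and 83.6, 90.8, 67.1, 90.3, 58.9 and 84.4 CPM in KO replicates 1 to 6. Both HET libraries lay below both WT libraries and below 5 of 6 KO libraries, while KO replicate 5 lay between the HET libraries. With 2 libraries in each group, WT and HET did not overlap for 4 of 20 members and for 6894 of all 14354 tested genes. The log2 fold change was -0.68 (SE 0.222, edgeR adjusted p = 0.709) for HET over WT, 0.49 (SE 0.186, edgeR adjusted p = 0.434) for KO over HET and -0.19 (SE 0.186) for KO over WT. HET was thus the lowest of the 3 genotypes for Tspan32, whereas for Zbtb38 it lay between WT and KO. In a fit of the 4 ZBTB38 WT and HET libraries alone the first value was -0.69 with an edgeR adjusted p of 0.0708, and there 523 genes in all were called. Over its 21 alternatives this adjusted p ranged from 0.0708 to 1. The sum of T cell markers, given above with Ascl2, was also lower in both HET libraries than in both WT libraries, with and without Lck. The sum of myeloid markers was 94.2 and 100.4 CPM in HET, 616 and 488 CPM in WT, and 111, 82.4, 303, 804, 292 and 283 CPM in KO replicates 1 to 6. The T cell sum without Lck was 29.1 and 44.7 CPM in HET and 182 and 185 CPM in WT. In KO replicates 1 to 6 it was 81.4, 111, 51.2, 118, 56.9 and 152 CPM. The part of T cells and of myeloid cells in the Tspan32 level was not tested. In bulk samples fewer cells of a type and less RNA per cell cannot be told apart.

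Cd81 was at 316 and 313 CPM in ZBTB38 WT, 394 and 308 CPM in HET and between 278 and 418 CPM with a median of 322 CPM in KO. The KO libraries spanned all controls, with a log2 fold change of 0.08 (SE 0.163) for KO over WT and 0.00 (SE 0.127) for KO over both controls. Copg2 was at 74.8 and 58.0 CPM in ZBTB38 WT, 95.5 and 72.9 CPM in HET and between 56.1 and 98.6 CPM with a median of 63.5 CPM in KO, and the groups overlapped. Its log2 fold change was -0.14 (SE 0.176) for KO over both controls, and 21.98% of its 31-base words are shared with Mest.

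Among the chromatin and RNA genes, Nap1l4 was the steadiest. It was at 223 and 202 CPM in ZBTB38 WT, 224 and 216 CPM in HET and between 207 and 228 CPM with a median of 217 CPM in KO, and its log2 fold change over both controls was 0.01 (SE 0.0808). Tssc4 was at 55.7 and 69.2 CPM in ZBTB38 WT, 68.8 and 55.2 CPM in HET and between 68.6 and 76.8 CPM with a median of 72.5 CPM in KO. Of the KO libraries, 5 of 6 lay above all controls and replicate 1 lay just under the 2 highest, so the groups overlapped. The log2 fold change was 0.22 (SE 0.108, edgeR adjusted p = 0.744) over both controls, and 10.3% of its 31-base words occur in Trpm5 on the other strand.

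The RNA and translation genes listed as paternal were low and uneven between mice. Snrpn lay between 4.33 and 7.64 CPM in the controls and between 0.631 and 13.2 CPM in ZBTB38 KO, where both extremes were reached by single libraries, replicates 6 and 2. Its log2 fold change over both controls was 0.27 (SE 0.58), or 0.50 (SE 0.361, edgeR adjusted p = 0.829) without replicate 6, and 24.3% of its 31-base words are shared with other genes of its locus. Snurf, which is encoded in the same message and was looked up after the Snrpn values were seen, had 0 counts in all 4 controls and in ZBTB38 KO replicate 4 and 1 to 4 counts in the other 5 KO libraries. A 0 allows up to 3 counts, and only 1 library, KO replicate 2, had more than 3, so the Snurf counts set no difference between genotypes. Impact lay between 5.51 and 9.92 CPM in controls and between 4.91 and 15.2 CPM in KO, with a log2 fold change of 0.12 (SE 0.343). For Mcts2 and Zrsr1 the log2 fold changes were 0.18 (SE 0.553) and -0.18 (SE 0.367). None of these 4 differed beyond the spread between libraries by the test, and the intervals for Snrpn and Mcts2 include a doubling.

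**Figure D4:**
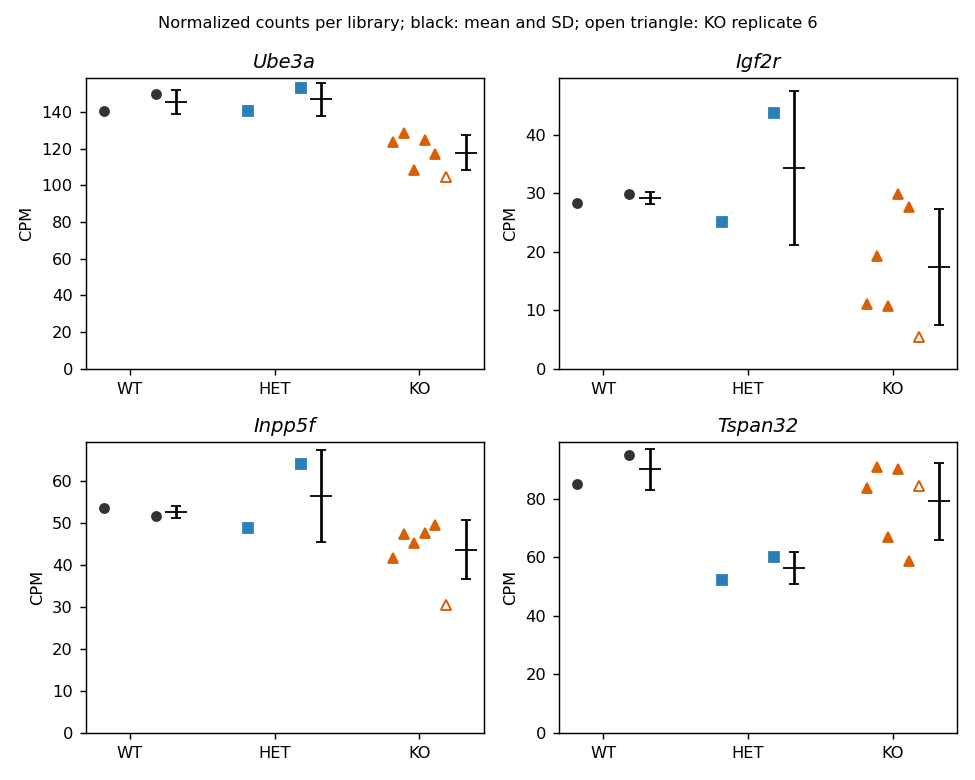
Normalized counts (CPM, axes from 0) of Ube3a, Igf2r, Inpp5f and Tspan32, with one point per library of ZBTB38 WT (n = 2), HET (n = 2) and KO (n = 6), an open triangle for KO replicate 6, and the mean with its SD in black. For Ube3a the KO points, 105 to 129, sit below all controls, 140.5 to 153; for Igf2r and Inpp5f the KO points reach into the controls, and for Tspan32 the HET points are the low ones.

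A second list held 34 further imprinted genes, of which 33 were in the files, with 8 at 5 TPM or more and 13 at 1 TPM or more. The highest were H13, a presenilin-like peptidase whose intron holds Mcts2, at 73.0 TPM, Pon2, a lactonase, at 61.9 TPM and Gatm, an enzyme of creatine synthesis, at 60.2 TPM. Between controls and ZBTB38 KO, edgeR called 0 of 19 tested genes at an adjusted p under 0.1, and 1 had an unadjusted p under 0.05, beside 0.00749% and 6.30% of all genes. That was Sfmbt2, a Polycomb-related gene of the placenta, at 0 to 0.138 CPM in the 4 controls and 0.0326 to 1.28 CPM in KO, with a log2 fold change of 2.98 (SE 1.11, edgeR adjusted p = 0.744). It had at most 35 counts in a library. Between ZBTB38 WT and KO, 0 of 20 had an unadjusted p under 0.05. H13 was lowest in HET, at 75.4 ± 0.869 CPM (SD, n = 2) against 117 ± 1.88 CPM (SD, n = 2) in WT and 111 ± 15.8 CPM (SD, n = 6) in KO. DESeq2 called 0 genes of this list in the first 2 comparisons and between WT and HET, and 1, H13, between HET and KO, where it called 3.19% of all genes.

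Factors that set or keep imprints were mostly well expressed. Of 16 listed, 11 were at 5 TPM or more, led by Uhrf1, the hemimethylation reader, at 180 TPM, Eed, a subunit of PRC2, at 161 TPM and Dnmt1, the maintenance methyltransferase, at 145 TPM. Of 13 tested, edgeR called 0 at an adjusted p under 0.1 in any of the 4 comparisons. Between controls and KO, 3 had an unadjusted p under 0.05, all lower in KO, and between HET and KO 4 did, also all lower. Over all genes the shares were 6.30% (841 genes, 540 of them lower) and 10.2% (1467 genes, 784 of them lower). In the other 2 comparisons 0 did. DESeq2 called 1, Zfp445, between HET and KO, among 458 genes in all, and 0 in the other 3. Zfp445, a KRAB zinc finger protein that keeps imprints, was at 52.5 and 50.8 CPM in ZBTB38 WT, 84.1 and 49.5 CPM in HET and between 28.6 and 47.1 CPM with a median of 40.6 CPM in KO. In CPM all KO libraries lay below all controls, with a log2 fold change of -0.61 (SE 0.199, edgeR adjusted p = 0.744), or -0.54 (SE 0.192, edgeR adjusted p = 0.818) without ZBTB38 KO replicate 6. Groups also did not overlap for Kdm1b, a histone demethylase of oocytes, at most 45.2 CPM in KO and at least 45.99 CPM in the controls. These were 2 of 13 factors, beside 1.51% of all tested genes. In TPM the groups overlapped for both. KO replicate 4 was at 18.4 TPM for Zfp445 and 16.1 TPM for Kdm1b, against 18.1 and 15.7 TPM in WT replicate 2. Kdm1b had a log2 fold change of -0.32 (SE 0.123) and Dnmt1 of -0.39 (SE 0.179). For Dnmt1 the HET libraries were the high ones, at 730 and 790 CPM against 581 and 514 CPM in WT.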

How the data were processed

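The 10 RNA-seq libraries were grouped by genotype as the sample labels give it (2 WT, 2 HET and 6 KO mice). The authors prepared SMART-Seq v4 libraries, whose reads carry no strand, and quantified paired-end reads with Salmon on Gencode vM17 (version 0.9.1 in the submitters' processing notes). The deposited estimated counts per transcript are raw and can be fractional. The deposited TPM values are corrected by the authors' pipeline for transcript length and depth.

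Both were summed per gene by the symbol in the transcript name, and summed counts were rounded. Library totals were between 26612431 and 41059082. The limit of 3 counts for a 0 covers counting error only, since duplicates were not separated. Intervals of fold changes come from the edgeR fits and include the spread between mice. Genes were tested with edgeR 4.0.16 (quasi-likelihood, TMM, filterByExpr, Benjamini-Hochberg adjustment over all tested genes, threshold 0.1) in R 4.3.3. ZBTB38 WT against KO and WT plus HET against KO were fitted on their own libraries, and HET against KO and WT against HET on all 10 with a term per genotype. Fold changes are KO over controls, or HET over WT. Zbtb38 was compared by exact permutation tests. Alternatives used DESeq2 1.42.0, DESeq2 size factors, limma 3.58.1 on log2(TPM + 1) and log2(TPM + 0.1), other filters, length-scaled counts, removal of immunoglobulin genes, a replicate block, a threshold of 0.05, other sets of libraries and each library left out.

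Positions come from Gencode vM21 (22349 of 22380 genes matched by identifier, all 37 members among them), and start sequences from RefSeq. Values by library (KO as lowest, median and highest, and each KO library for Ube3a, Igf2r and Tspan32) are given for members with a mean of at least 5 TPM or an unadjusted p under 0.05 in any comparison, other members by range, and of the further lists those with an unadjusted p under 0.05 between KO and either control set and the 3 highest. The members, lists and tests were chosen with earlier results of these data known. With 2 mice in a group, the spread is estimated mainly from the other groups. One germinal center B cell marker was left out of its list and is not reported here.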

Additional observations from a re-analysis of the deposited data

Results flagged for a closer look

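Of 21 genes checked for a ZBTB38 KO library far from the other 5 (the members tested and Zbtb38), 1 had one. Copg2 was at 98.64 CPM in KO replicate 5 and between 56.1 and 67.8 CPM in the other KO libraries, a gap of 0.726 of the whole range. Chance alone gives about 1 such library in 20 genes. ZBTB38 HET replicate 1 was at 95.5 CPM for the same gene.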

How the results depend on the processing

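The count of members called was 0 under 80 of 81 alternatives over the 4 comparisons. The exception was the fit of ZBTB38 WT against HET on only the libraries of the 2 groups, with 1 member, Tspan32. Over all genes the alternatives called 0 to 6 genes for WT against KO, 0 to 18 for WT plus HET against KO, 0 to 458 for HET against KO and 0 to 523 for WT against HET. Ube3a stayed lower in ZBTB38 KO in all of them, with log2 fold changes from -0.44 to -0.20 over WT, from -0.39 to -0.21 over both controls and from -0.38 to -0.22 over HET; its unadjusted p was under 0.05 in 10 of 19, 19 of 20 and 16 of 21. For Igf2r over both controls the range was -1.10 to -0.21, with 10 of 20. For Tspan32 it was 0.39 to 0.65 for KO over HET and -0.84 to -0.58 for HET over WT. Leaving out each library in turn gave 0 called members in every comparison. The replicate numbers did not pair the libraries (correlations of deviations from -0.014 to 0.117). With a replicate block, 0 members were called in each comparison, and Ube3a over both controls was at -0.21 with an edgeR adjusted p of 0.658. The difference of Zbtb38 in mean log2(value + 1) was -1.34 on TPM against WT and -1.16 against both controls. Low counts limit the members below 1 TPM, and no change can be stated for those that did not pass the filter.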
